A study of Homo sapiens with 8 samples.

Results

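The nuclear genes that encode subunits of respiratory complexes I to IV were compared between control and PKF118-310-treated cells in the human T-ALL lines CUTLL1 and TIB153. They were taken by symbol from the count files: NDUFA, NDUFB, NDUFC, NDUFS and NDUFV genes, SDHA to SDHD, CYC1, the ubiquitous UQCR subunits and the ubiquitous COX subunits. This gave 60 of the 57189 genes in the files, with 36 in complex I, 4 in complex II, 9 in complex III and 11 in complex IV. NDUFA4 was counted with complex IV, where its product sits. The count test could be run on 59 of the 60, and 58 reached 5 CPM in at least 1 library. The 1 gene without a test, NDUFA7, had 7 reads in control and 3 in treated CUTLL1, and 2 and 4 in TIB153.

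The respiratory chain lies in the inner mitochondrial membrane and passes electrons from NADH and succinate to oxygen, pumping protons as it does so. Complex I (NADH dehydrogenase) and complex II (succinate dehydrogenase) feed electrons to coenzyme Q, complex III hands them on to cytochrome c, and complex IV (cytochrome c oxidase) reduces oxygen. Apart from complex II, each complex joins core subunits made from mitochondrial DNA to subunits encoded in the nucleus, whose messages were read here.

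Poly(A) RNA was sequenced from 4 groups, CUTLL1 control, CUTLL1 with PKF118-310, TIB153 control and TIB153 with PKF118-310, each held by 1 library that was read in 2 lanes. PKF118-310 is a small molecule that blocks β-catenin from working with TCF factors, and it was given at 1 µM for 24 h. The control cells were placebo-treated, with the vehicle and genotype not given in the labels, and both lines carry the leukaemia's own changes, so that neither stands for normal T cells. Lanes of a library agreed within sampling noise and were summed. Totals per library ran from 7609427 to 8140391 counts. All 10 T cell markers looked at were detected in every library, from PTCRA (3.77 CPM in TIB153 control) to LCK (932 CPM in treated TIB153). The B cell, myeloid and erythroid markers MS4A1, CD79B, LYZ, CD14, CSF1R, MPO, HBB and HBA1 lay at 0.519 CPM or less, whereas CD79A lay at 10.8 to 104 CPM. Of the epithelial and stromal markers EPCAM was at 0, and COL1A1, KRT8 and COL1A2 reached at most 4.94 CPM. Levels are given as CPM, counts brought to the same depth with TMM factors, and changes as the log2 ratio of treated over control CPM. In these bulk samples fewer cells of a type and less RNA per cell cannot be told apart.

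After PKF118-310, most respiratory subunit messages were slightly lower in CUTLL1, and fewer were so in TIB153. The median log2 ratio of the 59 genes was −0.18 in CUTLL1 and −0.11 in TIB153, beside 0.00 and −0.01 for the 13280 genes tested. For the 3416 protein-coding genes whose control level lay between the quartiles of the subunit genes, it was −0.05 and −0.08. In CUTLL1 51 of 59 lay below 0, and in TIB153 37 of 59, against 6616 and 6745 of 13280 for all genes. In percent, these were 86.4% and 62.7% of the subunit genes, beside 55.5% and 58.0% of the protein-coding genes of like level, so that the TIB153 values lay near those of such genes. Both lines gave a ratio below 0 for 35 of the 59, or 59.3%, beside 35.7% of all genes tested. Here and for the complexes below, the share in both lines was not taken for genes of like level. In each line such genes lay below 0 more often than all genes, of which 49.8% and 50.8% did so. Few changes were large: the lower and upper quartiles were −0.30 and −0.10 in CUTLL1 and −0.28 and 0.07 in TIB153.

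Across the lines, 4 respiratory genes fell and 0 rose in edgeR's quasi-likelihood test with line as a block, at an adjusted p under 0.05. All 4 belong to complex I, which held 35 of the 59 tested genes: NDUFV3, NDUFA6, NDUFS6 and NDUFA5. Among all genes tested 6.78% fell and 6.11% rose, so the share of subunit genes that fell, 4 of 59, was that of the background. At an unadjusted p under 0.05, 10 subunit genes were lower and 1 was higher, the last being NDUFV2. Of the 13280 genes tested, 1966 were lower and 1847 higher at that limit. DESeq2's Wald test on the same counts called 0 subunit genes in either direction, beside 249 lower and 194 higher of all genes tested. It had 4 subunit genes lower and 0 higher at an unadjusted p under 0.05, beside 985 and 797 of all genes. Its adjusted p for the 4 genes that fell in edgeR ran from 0.199 to 0.282. With libraries scaled by their totals alone edgeR called 0 subunit genes. Of the calls over all genes 60.0% were then rises, against 47.4% with TMM. The test rests on 2 lines and 1 residual degree of freedom, so that its error is drawn mainly from the spread pooled over genes. It measures the spread between these lines only, since each group is 1 library. The study's figure legend marks a pair of placebo-treated controls and a pair of treated samples per line, but does not say of these lines whether they were separate cultures, and the labels give lanes of 1 library.

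NDUFV3, a small accessory subunit next to the NADH-oxidising flavoprotein of complex I, lay at 34.4 CPM in control and 23.2 CPM in treated CUTLL1, and at 34.4 and 20.6 CPM in TIB153. Both treated libraries were below both controls. It fell by 0.65 on the log2 scale across the lines (SE 0.19, edgeR adjusted p = 0.0338). Its ratio in TIB153, −0.74 with a counting interval of −1.03 to −0.46, was the lowest of any subunit gene in that line.

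NDUFA6, an accessory subunit of the LYR family on the peripheral arm, measured 70.8 and 44.2 CPM in control and treated CUTLL1 and 83.9 and 65.7 CPM in TIB153. Here too the groups did not overlap. The share of all genes tested with treated and control libraries so separated was not taken. For this and every other gene described in this way, the separation is therefore a description and not further evidence of a change. It fell by 0.51 (SE 0.15, edgeR adjusted p = 0.0364), with ratios of −0.68 in CUTLL1 and −0.35 in TIB153.

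NDUFS6, a zinc-binding accessory subunit needed late in assembly of the peripheral arm, went from 89.3 to 68.0 CPM in CUTLL1 and from 126.6 to 85.6 CPM in TIB153. Treated TIB153 was close to control CUTLL1, with both treated libraries below both controls. It fell by 0.48 (SE 0.13, edgeR adjusted p = 0.0296).

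NDUFA5, an accessory subunit of the peripheral arm, went from 87.1 to 65.0 CPM in CUTLL1 and from 78.7 to 56.1 CPM in TIB153. Its ratios in the lines were close, −0.42 and −0.49. It fell by 0.46 (SE 0.14, edgeR adjusted p = 0.0441). None of the 4 shares exon bases with a gene on its strand.

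**Figure D1:**
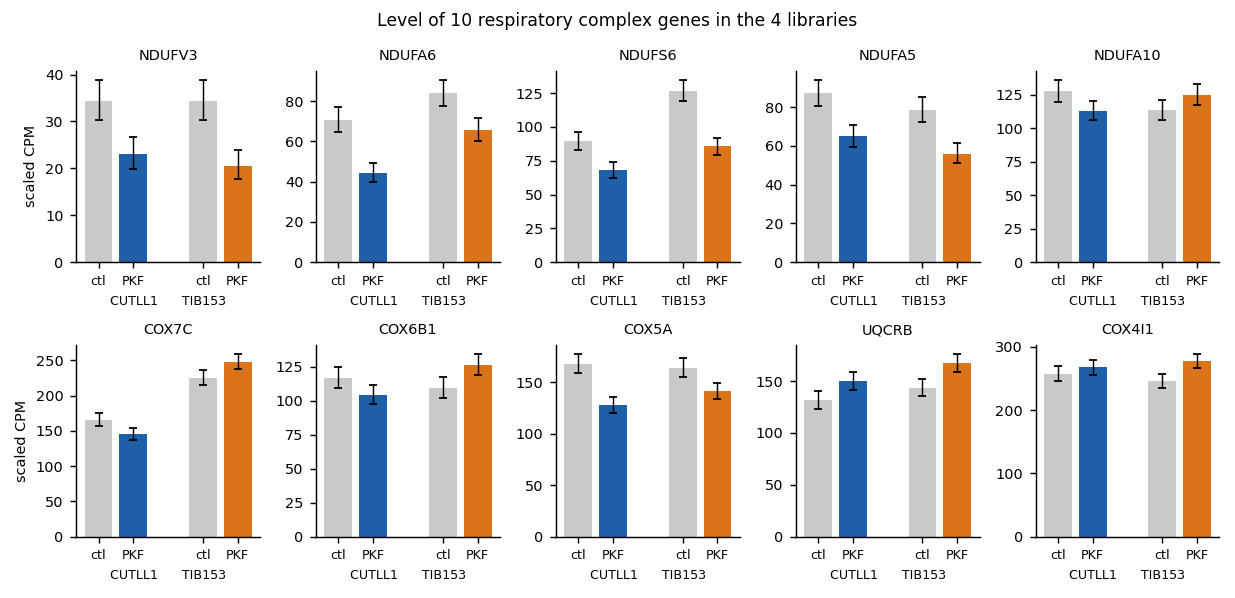
Scaled CPM (y axis, from 0) of 10 respiratory subunit genes in control (grey) and PKF118-310-treated (coloured) CUTLL1 and TIB153, 1 library per bar, with exact 95% Poisson intervals that cover counting error only. The first 4 panels show the genes that fell across the lines, lower in both treated libraries; NDUFA10, COX7C and COX6B1 were lower in treated CUTLL1 and higher in treated TIB153, COX5A was lower in both and UQCRB higher in both.

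The starts of these genes are shown because all are read from separate nuclear promoters, while their products join in 1 complex. The windows run from 250 bases before the start that RefSeq gives (GRCh38.p14) to 30 after it, 5′ to 3′ on the gene's strand. They lie at chr21:42893059-42893338 (plus strand) for NDUFV3, chr22:42090743-42091022 (minus) for NDUFA6, chr5:1801157-1801436 (plus) for NDUFS6 and chr7:123557789-123558068 (minus) for NDUFA5. Capitals mark any match to the motifs described further on, which here is only ATGGCGGC, a YY1 motif, after the start of NDUFS6.
NDUFV3: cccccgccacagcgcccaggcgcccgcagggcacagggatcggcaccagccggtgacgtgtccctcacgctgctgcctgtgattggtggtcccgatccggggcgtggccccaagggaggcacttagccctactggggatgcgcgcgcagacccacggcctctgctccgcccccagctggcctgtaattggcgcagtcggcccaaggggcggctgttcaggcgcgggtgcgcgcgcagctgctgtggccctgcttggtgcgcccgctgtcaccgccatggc
NDUFA6: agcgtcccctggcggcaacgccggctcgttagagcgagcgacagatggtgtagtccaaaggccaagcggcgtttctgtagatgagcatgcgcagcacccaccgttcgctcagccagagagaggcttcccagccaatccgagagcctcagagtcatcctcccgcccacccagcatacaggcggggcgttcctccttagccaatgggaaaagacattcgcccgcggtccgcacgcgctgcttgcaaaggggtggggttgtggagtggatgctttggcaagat
NDUFS6: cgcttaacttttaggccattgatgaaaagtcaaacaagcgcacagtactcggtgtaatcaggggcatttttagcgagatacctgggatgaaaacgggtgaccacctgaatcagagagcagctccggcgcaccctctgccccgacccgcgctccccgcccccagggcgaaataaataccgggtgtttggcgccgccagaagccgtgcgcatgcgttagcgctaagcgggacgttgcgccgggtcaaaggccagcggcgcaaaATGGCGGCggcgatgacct
NDUFA5: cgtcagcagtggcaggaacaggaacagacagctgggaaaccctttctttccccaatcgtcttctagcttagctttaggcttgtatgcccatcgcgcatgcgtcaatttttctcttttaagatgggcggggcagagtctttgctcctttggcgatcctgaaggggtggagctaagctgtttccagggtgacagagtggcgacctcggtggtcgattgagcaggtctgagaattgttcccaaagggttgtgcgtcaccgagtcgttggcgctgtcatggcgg

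Within a line there is no replicate, so changes were read against counting error alone (exact 95% binomial intervals). Beyond counting error, 33 of 59 subunit genes were lower and 1 was higher in CUTLL1, against 23.9% lower and 23.3% higher among all genes. In TIB153 24 were lower and 8 were higher, against 28.7% and 25.2%. In percent, 55.9% of the subunit genes were lower in CUTLL1 and 40.7% in TIB153. Genes with more reads have narrower intervals, and shares beyond counting error were not taken for genes of like level. Scaling by library totals alone left 21 lower in CUTLL1. Lower in both lines were 19 subunit genes, beside 15.7% of all genes, and higher in both was 1, UQCRB, beside 13.1%. With total scaling these counts were 9 and 2, the second gene being COX4I1.

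At 1.5-fold or more and beyond counting error, only 2 subunit genes were lower in CUTLL1 (6.39% of all genes) and 0 were higher (9.49%). These were NDUFA6 and NDUFB1. In TIB153 NDUFV3 and NDUFA8 were lower (9.81% of all genes) and NDUFV2 and NDUFA13 were higher (11.4%). No subunit gene was 2-fold lower in either line. NDUFB1 and NDUFA8 are named here for passing this limit, after their values were seen. NDUFB1, an accessory subunit of the membrane arm, lay at 32.8 and 20.3 CPM in CUTLL1 and at 30.1 and 27.0 CPM in TIB153. NDUFA8, an accessory subunit on the intermembrane side, lay at 37.5 and 31.1 CPM in CUTLL1 and at 56.6 and 36.8 CPM in TIB153.

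**Figure D2:**
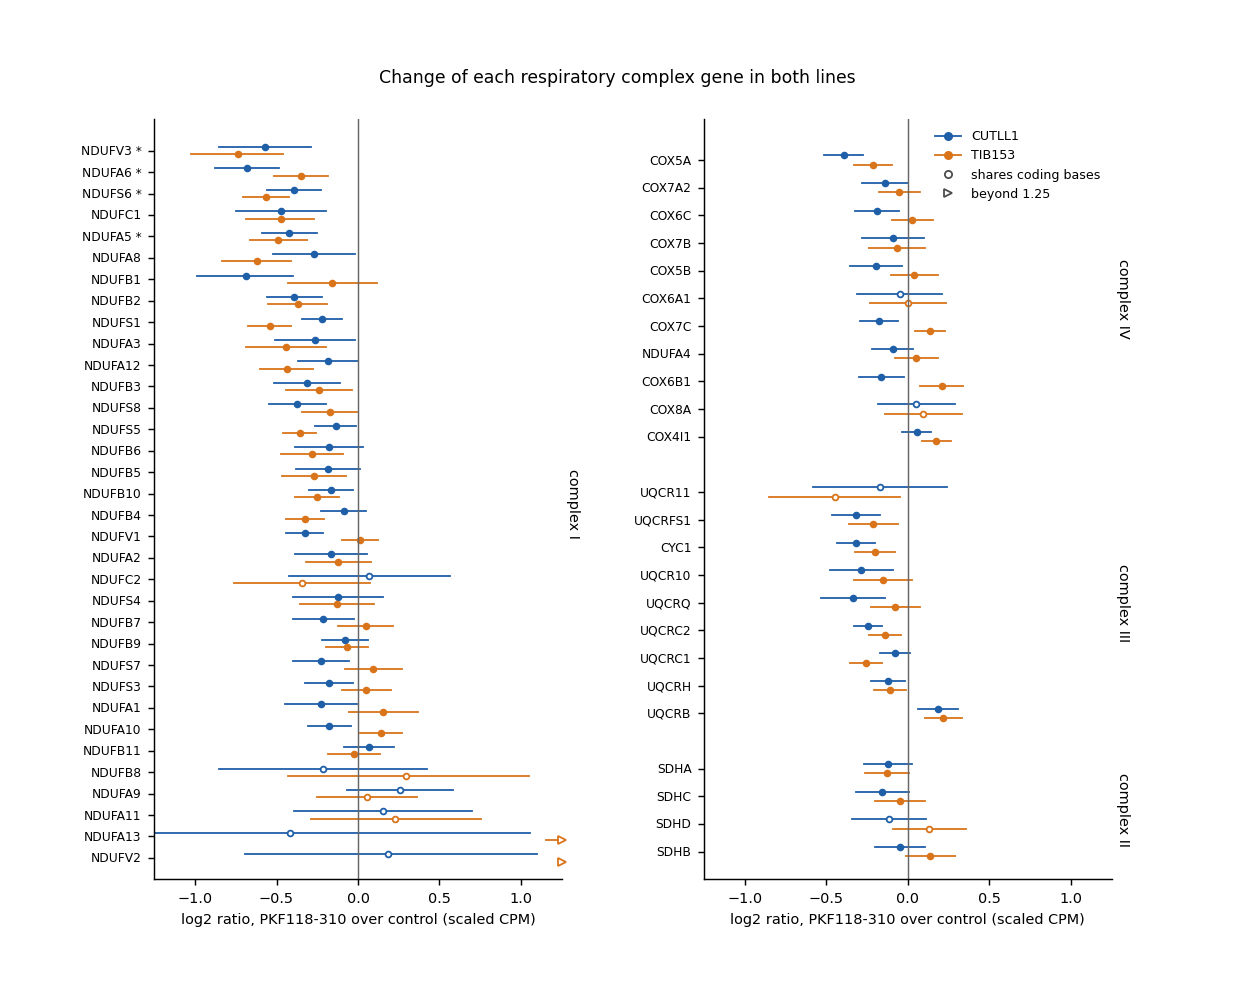
Log2 ratio of treated over control scaled CPM (x axis) for 58 of the 59 tested subunit genes in CUTLL1 (blue) and TIB153 (orange), with 95% counting intervals as lines; asterisks mark the 4 genes that fell across the lines, open circles the genes that share coding bases with another gene, and arrowheads the ratios of NDUFA13 and NDUFV2 in TIB153 beyond the axis. Most complex I and complex III points lie left of 0 in both lines, while complex IV points of TIB153 lie on both sides of it.

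In complex I the median log2 ratio was −0.21 in CUTLL1 and −0.17 in TIB153. Of 35 genes tested 4 fell (11.4%) and 0 rose in edgeR, beside 6.78% and 6.11% of all genes tested. With DESeq2 0 of the 35 passed in either direction. Below 0 in both lines were 21 of the 35. The 21 were 60% of the complex, beside 35.7% of all genes tested. Summed over the complex, the messages went from 2386 to 2031 CPM in CUTLL1 and from 2519 to 2182 CPM in TIB153. These sums changed by −0.23 (counting interval −0.26 to −0.20) and −0.21 (−0.24 to −0.18) on the log2 scale, so complex I was the complex whose sums were most alike in the lines.

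The nuclear core subunits of complex I, which include the carriers of its flavin and iron-sulphur clusters, did not move alike. NDUFS1, the largest iron-sulphur subunit, was at 151.9 and 130.4 CPM in CUTLL1 and at 141.7 and 97.4 CPM in TIB153. It was lower in both lines, with ratios of −0.22 (−0.34 to −0.10) and −0.54 (−0.67 to −0.41), but did not pass the test (edgeR adjusted p = 0.0696). NDUFS8, which carries a pair of clusters near the quinone site, was also lower in both, with ratios of −0.37 and −0.17.

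NDUFV1, the flavoprotein that takes electrons from NADH, was at 183.1 and 145.9 CPM in CUTLL1 and at 167.4 and 169.1 CPM in TIB153. Its ratio was −0.33 (−0.44 to −0.21) in CUTLL1 and 0.01 (−0.10 to 0.12) in TIB153. NDUFS3, which lies between the quinone site and the NADH end, had ratios of −0.18 in CUTLL1 and 0.05 in TIB153, and NDUFS7, which holds the last cluster before the quinone, had −0.23 and 0.09. Both intervals in TIB153 included 0. About 48% of the coding bases of NDUFS7 lie opposite another gene, and the strand setting of the counting was not stated. NDUFV2, another core subunit, could not be read in this way and is described with the genes that share sequence.

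Among the accessory subunits of complex I, the NDUFA genes had medians of −0.23 and −0.12, and the NDUFB genes, which line the membrane arm, −0.18 and −0.24. Of the 11 NDUFB genes tested 0 fell or rose, with 1 lower and 0 higher at an unadjusted p under 0.05 (edgeR). With DESeq2 the count was 0 in either direction, also at that limit. Below 0 in both lines were 8 of the 11, or 72.7%, beside 35.7% of all genes. NDUFA10, an accessory subunit of the membrane arm, was lower with PKF118-310 in CUTLL1, at 127.7 and 113.0 CPM, and higher in TIB153, at 113.5 and 125.1 CPM. Its ratios were −0.18 (−0.31 to −0.04) and 0.14 (0.01 to 0.27).

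Complex II showed no change beyond counting error in any gene and line. Its 4 genes are all nuclear: SDHA carries the flavin that oxidises succinate, SDHB the iron-sulphur clusters, and SDHC and SDHD the membrane anchor. SDHA lay at 99.6 and 91.4 CPM in CUTLL1 and at 119.1 and 108.9 CPM in TIB153, and SDHB at 90.7 and 87.6 CPM and at 87.7 and 96.4 CPM. The ratios of the 4 genes ran from −0.16 to −0.05 in CUTLL1 and from −0.13 to 0.14 in TIB153. Of the 4, 0 fell or rose across the lines, also at an unadjusted p under 0.05 with edgeR and with DESeq2. Reads of the SDHA pseudogenes were also counted. Those of SDHAP1 went from 105 to 198 in CUTLL1 and from 85 to 190 in TIB153, those of SDHAP3 from 67 to 93 and from 94 to 84, and their part in the values of SDHA was not tested.

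In complex III the ratio was below 0 in both lines for 8 of 9 genes, with medians of −0.24 and −0.15. Beyond counting error 4 of the 9 were lower in both lines and 1 was higher in both. Of all genes tested, 35.7% were below 0 in both lines. Beyond counting error 15.7% of all genes were lower in both and 13.1% higher in both. Of the 9, 0 passed the edgeR test in either direction, also at an unadjusted p under 0.05, and the same held for DESeq2. CYC1, the cytochrome c1 subunit that passes electrons to cytochrome c, was at 171.5 and 137.5 CPM in CUTLL1 and at 147.3 and 128.2 CPM in TIB153. UQCRFS1, the Rieske iron-sulphur subunit, was at 107.1 and 86.0 CPM and at 94.5 and 81.7 CPM. For both genes all treated values were below all control values. The ratios of CYC1 were −0.32 (−0.44 to −0.20) and −0.20 (−0.32 to −0.08), and those of UQCRFS1 were −0.32 and −0.21, with edgeR adjusted p of 0.175 and 0.196.

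The core proteins UQCRC1 and UQCRC2, which build the matrix side of complex III, differed in where they were lower. UQCRC2 was at 314.3 and 265.4 CPM in CUTLL1 and at 217.4 and 197.1 CPM in TIB153, below control beyond counting error in both. UQCRC1 was at 250.8 and 237.3 CPM and at 223.6 and 187.3 CPM, with an interval that included 0 in CUTLL1 (−0.17 to 0.01) and did not in TIB153 (−0.36 to −0.16). UQCRH, the acidic hinge subunit near cytochrome c1, had ratios of −0.12 and −0.11.

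UQCRB, a subunit that contributes to the ubiquinone pocket, was the only complex III gene above control. It lay at 131.5 and 149.6 CPM in CUTLL1 and at 143.6 and 167.0 CPM in TIB153, both treated values above both controls. Its ratios were 0.19 (0.06 to 0.31) and 0.22 (0.10 to 0.33), the call across lines being missed with an edgeR adjusted p of 0.288.

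Complex IV was the complex in which the lines differed most. Its median ratio was −0.14 in CUTLL1 and 0.04 in TIB153, with 9 and 4 of 11 genes below 0. Its summed messages went from 1297 to 1187 CPM in CUTLL1 and from 1356 to 1408 CPM in TIB153, which is −0.13 (−0.17 to −0.09) and 0.05 (0.02 to 0.09) on the log2 scale. Of the 11 genes 0 passed the edgeR test, with 1 lower (COX5A) and 0 higher at an unadjusted p under 0.05 and 0 in either direction with DESeq2.

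COX5A, a subunit on the matrix side of complex IV, was lower in both lines, from 168.1 to 127.8 CPM in CUTLL1 and from 164.3 to 141.6 CPM in TIB153. Both treated libraries lay below both controls, and the ratios were −0.39 (−0.52 to −0.27) and −0.21 (−0.33 to −0.10), with an edgeR adjusted p of 0.117. COX5B, which binds zinc on the matrix side, was lower in CUTLL1 only beyond counting error, at 88.2 and 77.0 CPM there and at 96.5 and 99.2 CPM in TIB153. The same held for COX6C, with ratios of −0.19 (−0.32 to −0.05) in CUTLL1 and 0.03 (−0.10 to 0.16) in TIB153. COX4I1, a subunit that joins early in assembly, was not lower in either line: it lay at 257.4 and 267.4 CPM and at 245.6 and 277.1 CPM, with ratios of 0.05 (−0.03 to 0.14) and 0.17 (0.09 to 0.26).

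COX7C and COX6B1 were lower in CUTLL1 and higher in TIB153. COX7C, a small subunit of the membrane part, went from 165.3 to 145.9 CPM in CUTLL1 and from 225.6 to 248.0 CPM in TIB153. COX6B1, which joins the monomers on the intermembrane side, went from 117.1 to 104.5 CPM and from 109.6 to 126.7 CPM. Like NDUFA10 they were beyond counting error in opposite directions in the lines, as were 3.4% of all genes. With total scaling COX7C was still so, and COX6B1 and NDUFA10 were not.

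The difference between the lines' ratios had a counting interval that excluded 0 for 23 of the 59 genes. In 17 of these the CUTLL1 ratio was the lower and in 6 the TIB153 ratio. The 17 held 11 genes of complex I, 1 of complex III and 5 of complex IV. The core genes NDUFV1, NDUFV2, NDUFS3 and NDUFS7 were among them, whereas NDUFS1 had the lower ratio in TIB153 by 0.32 (0.14 to 0.50). Of all genes tested, 14.1% had the lower ratio in CUTLL1 and 19.1% in TIB153. Together these were 33.2% of all genes, beside 39.0% of the subunit genes. A test of these differences was not possible with 1 library a group.

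**Figure D3:**
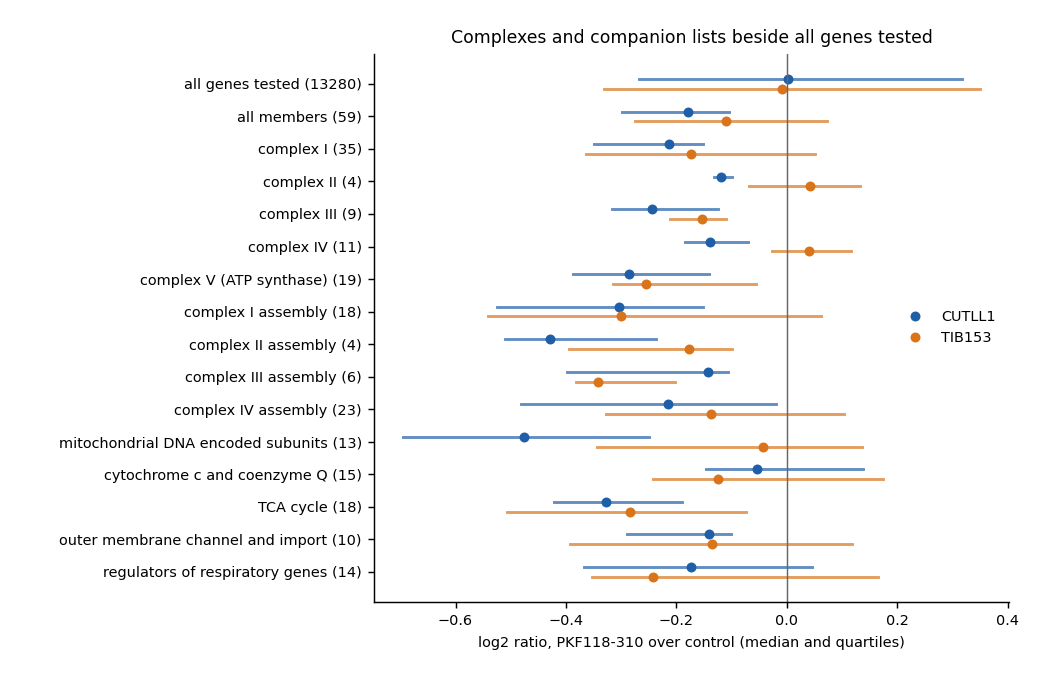
Median (points) and quartiles (bars) of the log2 ratio of treated over control scaled CPM in CUTLL1 (blue) and TIB153 (orange) for all genes tested, the subunit genes by complex and related gene lists, with the number of genes tested in parentheses. All genes are centred near 0, complexes I and III lie below 0 in both lines, and complexes II and IV do so only in CUTLL1.

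In the control cells the lines differed in subunit levels about as much as treatment changed them. The median size of the log2 difference between TIB153 and CUTLL1 controls was 0.17, beside a median size of 0.19 and 0.17 for the treatment ratio in CUTLL1 and TIB153. Over all genes the median size of the difference between the controls was 0.34. Beyond counting error 17 subunit genes were higher in TIB153 control and 11 in CUTLL1 control, beside 27.8% and 27.6% of all genes. That is 47.5% of the subunit genes against 55.4% of all. In the CUTLL1 direction UQCRC2 lay at −0.53. In the TIB153 direction NDUFC1 led at 0.72 (0.50 to 0.96), and NDUFS5, a small intermembrane subunit of complex I, followed at 0.68 (0.57 to 0.80). These differences, too, rest on 1 library per line.

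Per kilobase of exon, which allows genes to be compared, complexes III and IV were the more abundant. Their median level over the controls was 51.8 and 63.0 CPM per kilobase, against 23.1 for complex I and 14.0 for complex II. The highest of all were NDUFS5 at 321 and UQCRH at 147 CPM per kilobase, and the lowest of those tested were NDUFA13 at 0.321 and NDUFV2 at 0.834. These levels use every annotated exon base of a gene, so that genes with long, little used exons appear lower. In plain CPM the highest mean control levels were those of UQCRC2, COX4I1, UQCRC1, UQCRH and COX7C, between 195 and 266 CPM.

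**Figure D4:**
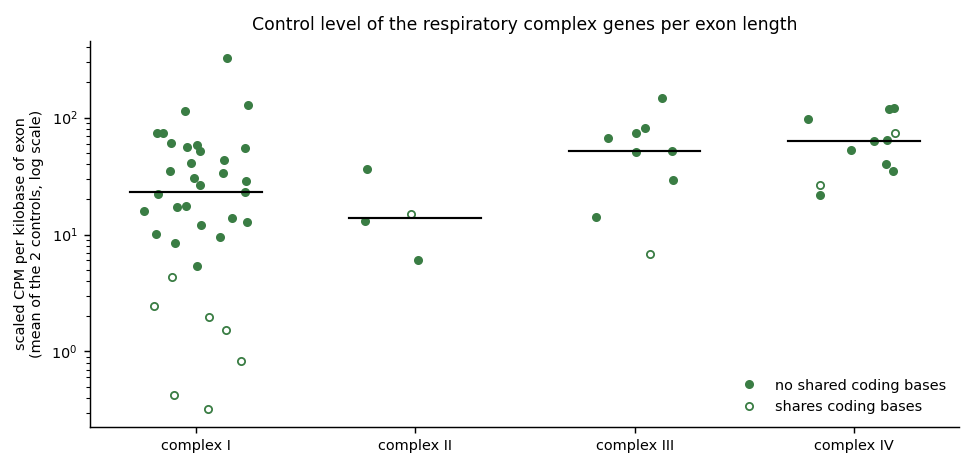
Mean control level per kilobase of exon (scaled CPM, log axis) of the 60 subunit genes by complex, with the median of the tested genes as a line; open circles are genes that share coding bases with another gene. The open circles of complex I, among them NDUFA7, NDUFA13 and NDUFV2, form its lower end.

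The low levels of several subunits go together with shared sequence. In 11 of the 60, over 25% of coding bases also belong to a second annotated gene of that strand: COX6A1, COX8A, NDUFA11, NDUFA13, NDUFA7, NDUFA9, NDUFB8, NDUFC2, NDUFV2, SDHD and UQCR11. Counting can set aside reads that match both genes, so the levels of these 11 are uncertain. The 10 of them that were tested had medians of 0.00 in CUTLL1 and 0.11 in TIB153, whereas the other 49 had −0.19 and −0.13. All 4 genes that fell were among the 49.

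Both genes that were 1.5-fold higher in TIB153 belong to this group. NDUFV2, a core subunit of complex I, was read 21 and 26 times in CUTLL1 and 13 and 67 times in TIB153. Its pseudogene NDUFV2P1 was read 25 and 26 times in CUTLL1 and 42 and 29 times in TIB153, and its part in the values of NDUFV2 was not tested. NDUFA13, an accessory subunit also known as GRIM-19, was read 10 and 8 times, then 3 and 24 times. The gene YJEFN3, which overlaps NDUFA13, was read 23 and 41 times, then 6 and 30 times, and its part in the result was not tested. Without these genes no subunit gene was 1.5-fold higher in TIB153.

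Genes around the respiratory chain were read in the same fit, from lists chosen with earlier results of these data known. Over all genes tested 6.78% fell and 6.11% rose in this fit, to be set beside the counts below. Of 19 tested genes of ATP synthase (complex V), which uses the proton gradient, 4 fell and 0 rose, with medians of −0.29 and −0.25. The largest mean changes among the 4 were those of ATP5MF, ATP5MC1 and ATP5PD. ATP5MC1, a gene for the rotating c ring, went from 74.2 to 43.4 CPM in CUTLL1 and from 69.9 to 51.0 CPM in TIB153, and it fell by 0.61 (SE 0.15, edgeR adjusted p = 0.0196). ATP5MF, for a membrane subunit, and ATP5PD, for a stalk subunit, fell by 0.64 and 0.49.

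Assembly factors of complex I, which build it but leave the finished enzyme, fell in 3 of 18 cases and rose in 0, with medians of −0.30 in both lines. ACAD9, an acyl-CoA dehydrogenase that serves complex I assembly, went from 63.0 to 44.9 CPM and from 59.6 to 31.8 CPM. It fell by 0.70 (SE 0.16, edgeR adjusted p = 0.0163), and NDUFAF8 and NDUFAF3 fell by 0.70 and 0.58. Of 4 complex II factors 0 changed (1 lower and 0 higher at an unadjusted p under 0.05 in edgeR). Of 6 complex III factors LYRM7, which guards the Rieske protein, fell by 0.65. Of 23 complex IV factors COA6, which helps copper reach the enzyme, rose by 0.59 and CMC1 fell by 0.70. Each is 4.35% of that list, beside 6.11% that rose and 6.78% that fell among all genes.

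The 13 subunits encoded in mitochondrial DNA had medians of −0.48 in CUTLL1 and −0.04 in TIB153. Of these 4 fell, MT-ND5 by 1.04, MT-ND3 by 0.76, MT-ND6 by 0.73 and MT-CO3 by 0.51, and 0 rose. MT-ND5 went from 2221 to 937 CPM and from 1796 to 1005 CPM. The 13 held 276688 reads in CUTLL1 control, so that their counting intervals were narrow and small ratios could pass. Beyond counting error all 13 were lower in CUTLL1, beside 23.9% of all genes. In TIB153 7 were lower and 5 were higher, beside 28.7% and 25.2% of all genes. MT-ND2 was the furthest of the 5, with a ratio of 0.92 in TIB153 (2078 to 3940 CPM) and −0.25 in CUTLL1, and MT-ND1 had 0.53 and −0.29. Summed, the 13 changed by −0.49 in CUTLL1 and 0.05 in TIB153.

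The tricarboxylic acid cycle, which makes the NADH and succinate that complexes I and II use, had 5 genes that fell and 0 that rose among 18, with medians of −0.33 and −0.28. SUCLG2, a subunit of the GTP-forming succinyl-CoA ligase, went from 39.4 to 20.2 CPM and from 42.2 to 18.7 CPM and fell by 1.07. IDH3A and FH fell by 0.57 and 0.56. Of 15 genes for cytochrome c and coenzyme Q synthesis 1 fell (6.67%): PDSS1, which makes the coenzyme's side chain, by 0.78. Of 10 genes for the outer membrane channel and protein import 1 fell (10%): VDAC1, the main channel, by 0.87. Among all genes 6.78% fell.

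Of the regulators of respiratory genes, 2 of 14 tested fell and 0 rose. TFAM, which packages and transcribes mitochondrial DNA, went from 129.6 to 99.3 CPM and from 149.9 to 107.8 CPM and fell by 0.43 (SE 0.12, edgeR adjusted p = 0.0349). PPARGC1B, a coactivator of the PGC-1 family, fell by 0.94. NRF1 had ratios of 0.02 and 0.17, GABPA of −0.15 and −0.29, ESRRA of 0.29 and 0.15 and YY1 of 0.01 and −0.20, none of which passed. PPARGC1A, with 3 and 8 reads in CUTLL1 and 0 and 1 in TIB153, was not tested. Fewer genes of these related lists passed with DESeq2: 4 of the mitochondrial DNA, 1 of the tricarboxylic acid cycle and 1 of the outer membrane channel and import list fell, and in the lists for complex V, the assembly factors, cytochrome c and coenzyme Q, and the regulators the count was 0. Of the 13280 genes tested, DESeq2 called 249 lower and 194 higher. At an unadjusted edgeR p under 0.05, 1 gene was higher in each of the cytochrome c and coenzyme Q, regulator and complex IV assembly lists. In the other related lists named so far 0 were higher at that limit, beside 1847 of all genes tested.

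Of 13 relatives of the subunit genes that the selection leaves out, such as tissue isoforms, 4 had enough reads to be tested. Of these 4, 2 rose in edgeR, beside 6.11% of all genes. With DESeq2 0 passed and 2 were higher at an unadjusted p under 0.05, beside 797 of all 13280 genes. NDUFA4L2, a relative of NDUFA4, went from 2.70 to 7.35 CPM and from 4.42 to 12.6 CPM and rose by 1.48 (SE 0.33, edgeR adjusted p = 0.0121). COX7A2L, which joins complexes III and IV, went from 89.6 to 123.3 CPM and from 44.9 to 71.1 CPM and rose by 0.56 (SE 0.14, edgeR adjusted p = 0.0187). NDUFA4 itself had ratios of −0.09 and 0.05, and COX7A2 of −0.14 and −0.05.

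Promoter windows in the RefSeq table (250 bases before to 50 after a start) matched 50 of the 60 genes, some with several starts, which gave 58 windows beside 35116 for all genes. Motifs were searched as letters on both strands. The NRF1 motif, with 1 of its central bases left free, was in 20.7% of the subunit windows and 5.78% of all, and its palindromic form with A at that base, which is counted within it, in 5.17% and 1.24%. CCGGAAG, the core bound by ETS factors such as GABP, was in 25.9% and 10.3%. TGACGTCA, the cAMP response element, was in 5.17% and 1.85%, and ATGGCGGC, a YY1 motif whose first letters can be a start codon, in 22.4% and 3%. A match describes letters only and is not a site of binding.

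The ratios of genes with a motif were set beside those without it. The 12 genes with the NRF1 motif had medians of −0.15 in CUTLL1 and −0.23 in TIB153, and the 37 tested genes without it −0.21 and −0.07. The 15 with CCGGAAG had −0.17 and 0.05 and the 34 without it −0.22 and −0.17. Of the 4 genes that fell, NDUFS6 held a motif in its window, and the windows of NDUFV3, NDUFA6 and NDUFA5 held none. The windows of 2 more genes are shown for contrast: NDUFA8 (chr9:122159750-122160029, minus strand), one of 3 genes with the palindromic NRF1 form, and COX4I1 (chr16:85799445-85799724, plus strand), whose ratios were above 0 in both lines, with CTTCCGG, the ETS letters on the other strand. In NDUFA8 the capitals cover 2 overlapping NRF1 matches at the start.
NDUFA8: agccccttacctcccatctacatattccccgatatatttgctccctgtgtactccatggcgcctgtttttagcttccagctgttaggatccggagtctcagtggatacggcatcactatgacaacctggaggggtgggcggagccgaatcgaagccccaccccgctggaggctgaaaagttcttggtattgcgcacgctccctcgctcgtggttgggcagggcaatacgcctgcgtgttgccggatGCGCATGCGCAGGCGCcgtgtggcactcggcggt
COX4I1: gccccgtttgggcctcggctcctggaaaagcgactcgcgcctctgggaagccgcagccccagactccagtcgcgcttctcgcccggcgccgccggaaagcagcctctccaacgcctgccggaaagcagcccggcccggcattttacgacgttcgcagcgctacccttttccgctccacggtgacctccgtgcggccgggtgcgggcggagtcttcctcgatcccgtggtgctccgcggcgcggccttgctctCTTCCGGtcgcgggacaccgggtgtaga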

How the data were processed

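RNA-seq was analysed from CUTLL1 and TIB153 cells, control or treated with PKF118-310. As deposited by the authors, each lane file lists raw read counts per gene as whole numbers. Of how they were made, the processing notes of the submitters give the tools HISAT2, HTSeq and DESeq2 and the build hg38, with neither version nor setting. The 2 lanes of each library were summed (n = 1 library per group). The authors' own comparison tables hold fold changes and p-values for genes chosen by outcome and were not used, nor were their 8 count columns, whose samples are not named.

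Subunit genes were selected by symbol, annotated with GENCODE release 29 (99.2% of genes matched by name and position), and read from a fit over all genes: edgeR 4.0.16 in R 4.3.3, TMM, filterByExpr (13280 genes), robust quasi-likelihood test with line as a block, Benjamini-Hochberg adjustment. The pairing comes from the line itself. DESeq2 1.42.0 was an alternative. Within a line, log2 ratios used a pseudocount of 0.5 counts and exact 95% binomial intervals. Intervals cover counting error only. The edgeR fit was tested on simulated data.

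Members and lists were chosen with earlier results of these data known. Named are the genes that passed the test, the 3 highest and 3 lowest mean ratios of each complex, core subunits, genes beyond counting error in opposite directions in the lines, the 5 highest and 5 lowest levels, up to 3 passing genes of each related list, and 6 regulators. Other genes named were chosen after their values were seen. The values of 1 subunit gene are not reported here, while counts and medians over the lists include it. Promoter windows were those of RefSeq on GRCh38.p14.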

Additional observations from a re-analysis of the deposited data

Results flagged for a closer look

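NDUFA10, COX7C and COX6B1 were beyond counting error in opposite directions in the lines and are listed here because the effect of PKF118-310 differed in sign between CUTLL1 and TIB153. The CUTLL1 log2 ratio minus the TIB153 log2 ratio was −0.32 for NDUFA10, −0.32 for COX7C and −0.37 for COX6B1. The counting intervals of these differences were −0.50 to −0.13, −0.46 to −0.17 and −0.56 to −0.18. With 1 library per group the differences were not tested. The controls of the lines also differed for COX7C, at 165.3 CPM (CUTLL1) and 225.6 CPM (TIB153). The part of these control levels in the result was not tested.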

How the results depend on the processing

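The number of subunit genes that fell, 4, became 0 with scaling by total counts only, 0 in the DESeq2 Wald test and 0 with no replicate block (lines as unpaired replicates; 0 calls over all genes and 889 at an unadjusted p under 0.05, of which 1 was a subunit gene that was lower). With DESeq2 size factors, no filter beyond 1 read, no robust fit or without the genes that share coding bases it was within 1.5 times of 4, and 0 rose under every alternative run. Adjusted p of the 4 genes over the alternatives ran up to 0.752, and all 4 log2 changes stayed negative. With total counts only, the median log2 ratio (mean of the lines) was −0.0706 for all subunit genes and −0.15 for complex I, and it turned positive for complex II (0.0079) and complex IV (0.029). Lane 1 alone also turned complex II (0.011). Without the genes whose pseudogenes had reads, the medians were −0.15 for complex I, 0.044 for complex II and 0.026 for complex IV. Leaving out 1 line gave −0.18 to −0.11 for all subunit genes, −0.21 to −0.17 for complex I, −0.12 to 0.041 for complex II, and −0.14 to 0.039 for complex IV, the positive values being those without CUTLL1. For complex III no alternative moved the median by more than the SD between the lines. Within the lines, a 2-fold limit gave 0 lower genes in CUTLL1 and 0 in TIB153. Total counts only gave 21 lower and 2 higher genes beyond counting error in CUTLL1, 1 gene 1.5-fold lower in TIB153, and 9 lower in both lines, 2 higher in both and 2 in opposite directions. Without the genes that share coding bases 0 were 1.5-fold higher in TIB153. The cause of these moves was not tested. The alternatives on shared coding bases and on counts over both lines were chosen after seeing the data. Depth limits the genes with few reads most, such as NDUFV2 and NDUFA13.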
